A study of Homo sapiens with 6 samples.

Results

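The 10 genes SLC2A1, SLC2A3, HK2, PFKFB3, PFKFB4, ALDOC, PGK1, ENO2, LDHA and PDK1 serve glucose uptake and glycolysis and are known to be induced by low oxygen. They were taken from 60609 genes listed in the count tables by symbol, and they were selected on these libraries, from their S767 to DMSO ratio within each replicate number. The S767 to DMSO values of the 10 genes are therefore a description, and no test is given for them. RNA came from OCI-AML5, a human cell line from acute myeloid leukemia grown in medium with GM-CSF, a myeloid growth factor. Libraries were made from 3 samples exposed for 24 hours to 1 μM S767, a small molecule found in a screen of primary leukemia specimens, and from 3 samples exposed for as long to DMSO, its solvent. The series holds this cell line, dose and time only, and no oxygen condition is given in its labels, so "hypoxia-induced" names what is known of these genes and not a condition compared here. The study's methods say that cells were treated in triplicate, but neither they nor the labels say whether replicates were grown separately, so p-values measure only the spread between these samples, which may be technical.

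Cells respond to low oxygen mainly through the hypoxia-inducible factors (HIFs), whose α subunits are hydroxylated by the EGLN enzymes when oxygen, iron and 2-oxoglutarate are present, recognized by VHL and degraded. Stabilized HIF pairs with ARNT and binds a short core sequence near its target genes. Many of these targets move glucose into the cell, speed its conversion to lactate and keep pyruvate out of mitochondria, and myeloid cells rely strongly on this route.

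The libraries held 149994700 to 258029564 fragments on genes, so counting error was small for all 10 genes, of which the least counted had 255 fragments in a library. All 10 passed the limit on low counts. The replicate numbers set the libraries apart more than the treatment did, and the replicate 1 pair stood apart in 2 ways. LYZ, a granule enzyme of myeloid cells, was at 620 and 607 CPM (fragments scaled to a common library size) in the DMSO and S767 libraries of replicate 1, against 253 to 287 CPM in the other 4 libraries. On the third principal component, which separated the treatments, the DMSO and S767 libraries were at 0.589 and 4.99 in replicate 1, against -23.6 and 26.8 in replicate 2 and -15.4 and 6.62 in replicate 3. By another measure the pairs were more alike. Over 6191 genes with a mean log2 CPM above 5, the log2 ratio of S767 to DMSO had an SD of 0.067, 0.076 and 0.079 in the replicate 1, 2 and 3 pairs. Summed over 10 myeloid markers, CPM were 1339 and 1316 in the replicate 1 libraries and 898 to 967 in the others. Much of this difference was LYZ itself. MPO and SPI1 were also highest in the replicate 1 libraries, but CD34 and FLT3 were lowest there. CSF2RA was at 0 CPM in every library, but at 2.9 to 3.89 TPM (RSEM estimates, scaled by transcript length). Its 0 in the counts therefore does not show that it was absent. In DMSO the sum ran from 898 to 1339 CPM and in S767 from 902 to 1316. Of 9 markers of other cell types, 8 summed to 0.294 to 0.456 CPM in every library, MS4A1, CD3E and HBB were at or near 0, and PECAM1, which myeloid cells also express, was at 9.97 to 14.2 CPM. The part of the LYZ difference in the results below was not tested. Since these are bulk samples, a change in the share of cells of a kind and a change in RNA per cell cannot be told apart.

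The HIF core sequence is written ACGTG or GCGTG. In the 250 bases before the start sites that RefSeq (GRCh38.p14) lists, searched on both strands with overlapping matches counted on each, ACGTG occurred in 7 of the 9 genes that had an entry. It occurred in 21.7% of the 27305 genes with listed promoters and in 18.5% of all 35116 promoters. For GCGTG the share of all promoters was 32.2%. ACGTG was matched 5 times before the first start of LDHA, 4 times before the second start of HK2, 3 times before ALDOC and 2 times before PGK1. A site CACGTG reads the same on both strands and counts as 2 matches. LDHA, HK2 and ALDOC held such sites, so their matches are more than their separate sites. PFKFB4 held GCGTG 1 time and no ACGTG in this window, and SLC2A1 held neither. SLC2A3 had no entry. The 30 bases around the match nearest the start are shown for 5 of the 7 genes with ACGTG, chosen to include large (ALDOC, PDK1) and small (PGK1) ratios of S767 to DMSO, 5′ to 3′ on the strand of the gene, with matches to ACGTG on either strand in capitals. A match is only a description of these letters.
ALDOC, chr17:28576906-28576935, minus strand: ccccggaggagtCACGTagctctgcgacat
LDHA, first start, chr11:18394478-18394507, plus strand: cgtgggttcccgCACGTccgccggcccccc
PDK1, second start, chr2:172556060-172556089, plus strand: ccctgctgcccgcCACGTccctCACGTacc
ENO2, chr12:6914450-6914479, plus strand: acccgcgctcgtACGTGcgcctccgccggc
PGK1, chrX:78104053-78104082, plus strand: aaacggaagccgCACGTctcactagtaccc
The match shown lies 28 bases before the start of ALDOC, 73 before LDHA, 8 before PDK1, 118 before ENO2 and 183 before PGK1, counted from its first base. In PDK1 a pair of matches fell within the 30 bases.

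Levels of different genes were compared as TPM, which divides by transcript length. LDHA, which turns pyruvate into lactate, had the highest level of the 10 genes in DMSO at 887 ± 76.3 TPM (SD, n = 3), and PGK1, which makes the first ATP of the pathway, followed at 500 ± 21.6. HK2, which traps glucose in the cell, was at 69.6 ± 3.73 TPM and the glucose transporter SLC2A1 at 43.1 ± 1.10. PFKFB3, which makes the activator of phosphofructokinase, was at 23.3 ± 0.454 TPM. These 5 genes did not overlap with their neighbors in the order. ENO2, SLC2A3, ALDOC, PDK1 and PFKFB4 followed at 15.7 ± 1.05, 12.2 ± 2.98, 11.4 ± 6.59, 7.45 ± 2.15 and 2.97 ± 2.14 TPM, and the ranges of each overlapped with the next. In S767 the first 7 places were the same, and PDK1 at 5.92 ± 0.386 TPM and ALDOC at 4.82 ± 1.42 overlapped with each other. PFKFB4 was last in both treatments, at 0.760 ± 0.221 TPM in S767.

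**Figure D1:**
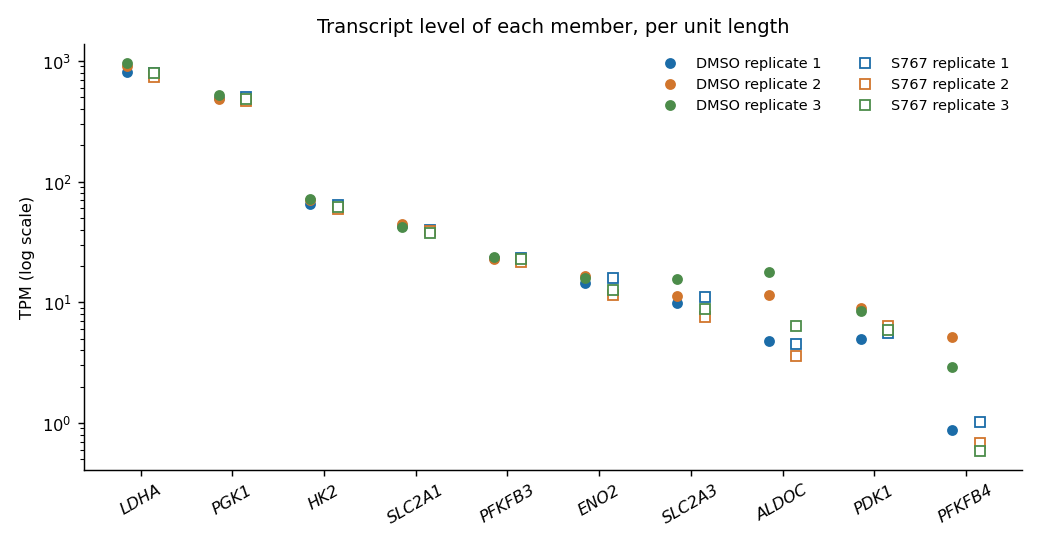
TPM of the 10 genes (log axis) in each library, ordered by their mean in DMSO; filled circles are DMSO and open squares S767, colored by replicate number. Levels span from LDHA at 887 TPM to PFKFB4 at 2.97 TPM in DMSO, and the DMSO points of ALDOC, PDK1 and PFKFB4 lie farther apart than those of the genes with higher levels.

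The transporters differed in how far they moved. SLC2A1 (GLUT1, the common glucose transporter; ENSG00000117394, chr1:42925375-42959176) was at 81.2, 89.6 and 81.9 CPM in DMSO replicates 1 to 3 and at 75.9, 81.2 and 74.8 CPM in S767. Its S767 library was lower than its DMSO partner in every pair, by 0.098, 0.14 and 0.13 on the log2 scale. The groups did not overlap, but DMSO replicate 1 (81.19 CPM) and S767 replicate 2 (81.16 CPM) were nearly equal. SLC2A3 (GLUT3, a high-affinity transporter of blood cells and neurons; ENSG00000059804, chr12:7919230-7936275) was at 25.8, 30.4 and 39.7 CPM in DMSO and at 28.4, 20.6 and 23.2 in S767. It was higher in S767 in replicate 1 and lower in replicates 2 and 3, and the groups overlapped. SLC2A14, its near-identical copy, had 1 to 6 fragments in a library.

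Among the enzymes that commit glucose to glycolysis, HK2 (ENSG00000159399, chr2:74833981-74893359) was at 273, 298 and 299 CPM in DMSO and at 265, 256 and 261 in S767. All 3 S767 libraries were below all 3 DMSO libraries, and DMSO replicate 1 lay nearest to them. PFKFB3 (ENSG00000170525, chr10:6144934-6254644) was at 64.8, 69.5 and 68.3 CPM in DMSO and at 65.3, 62.9 and 64.4 in S767, so the groups overlapped through replicate 1. PFKFB4 (ENSG00000114268, chr3:48517684-48562015) makes and breaks down the same activator. It was at 1.96, 11.6 and 6.56 CPM in DMSO and at 2.08, 1.42 and 1.34 in S767. The DMSO libraries of PFKFB4 differed among themselves by 5.90-fold from lowest to highest and the S767 libraries by 1.55-fold, and DMSO replicate 1 lay among the S767 values.

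In the lower part of the pathway, ALDOC (aldolase C, which splits fructose 1,6-bisphosphate; ENSG00000109107, chr17:28573115-28577264) was at 5.12, 12.0 and 18.7 CPM in DMSO and at 4.63, 3.99 and 6.80 in S767. The DMSO replicate 1 library again lay among the S767 libraries, and the other DMSO libraries were above all of these. PGK1 (ENSG00000102144, chrX:77910739-78129296) was at 829, 841 and 877 CPM in DMSO and at 816, 807 and 827 in S767. Its groups did not overlap, but the gap between DMSO replicate 1 and the highest S767 library was the smallest step in that order. ENO2 (enolase 2, best known from neurons; ENSG00000111674, chr12:6913745-6923698) was at 21.9, 24.5 and 24.0 CPM in DMSO and at 22.5, 18.0 and 18.3 in S767. ENO2 was the only one of the 10 genes whose log2 values were more spread in S767 (SD 0.18) than in DMSO (SD 0.086).

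At the fork where pyruvate leaves glycolysis, LDHA (ENSG00000134333, chr11:18394388-18408425) was at 1133, 1273 and 1328 CPM in DMSO and at 1101, 1091 and 1130 in S767. The 3 S767 libraries of LDHA differed by 1.04-fold from lowest to highest, and DMSO replicate 1 lay just above them. PDK1 (ENSG00000152256, chr2:172555373-172608669), a kinase that turns pyruvate dehydrogenase off, was at 21.1, 37.3 and 33.1 CPM in DMSO and at 21.5, 25.0 and 23.7 in S767. DMSO replicate 1 had the lowest level of PDK1 of all 6 libraries.

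**Figure D2:**
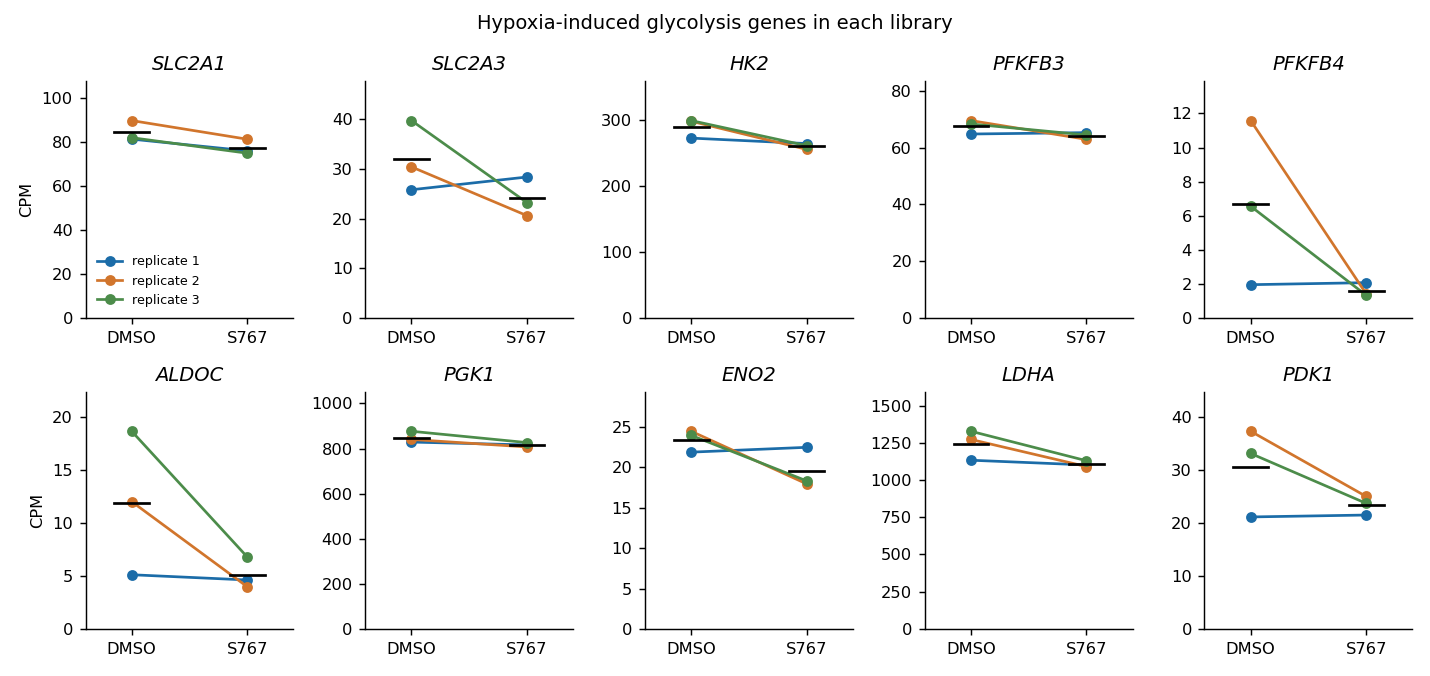
CPM of the 10 genes in each library (linear axes from 0), with a line joining the DMSO and S767 libraries of a replicate number and black bars for the means of 3 libraries. The lines of replicates 2 and 3 fall in every panel, whereas the line of replicate 1 is nearly level in most: PFKFB4 goes from 1.96 to 2.08 CPM there, and from 11.6 to 1.42 CPM in replicate 2.

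The 10 genes thus shared a pattern over the pairs. In the replicate 1 pair, 5 of the 10 were lower in S767, with log2 ratios from -0.15 (ALDOC) to 0.14 (SLC2A3) and a median of -0.0056. In the replicate 2 and replicate 3 pairs all 10 were lower, with medians of -0.33 and -0.31, and the largest ratios were those of PFKFB4 (-3.01 and -2.28) and ALDOC (-1.59 and -1.46). PGK1 (-0.058 and -0.085) and PFKFB3 (-0.14 and -0.084) were among the least changed. Between them and ALDOC lay SLC2A3 (-0.56 and -0.77), PDK1 (-0.58 and -0.48), ENO2 (-0.45 and -0.39), LDHA (-0.22 and -0.23) and HK2 (-0.22 and -0.20). The medians over all 20725 genes tested were 0.0056, 0.0010 and 0.0011 in the 3 pairs, and 9927, 10285 and 10292 of these genes were lower in S767. Both DMSO replicates 2 and 3 were above every S767 library for all 10 genes, as for 9.66% of all genes tested. DMSO replicate 1 was within the range of the S767 libraries for 5 genes, above it for 4 and below it for PDK1. Over all 20725 genes tested it was within that range for 10440, above it for 4972 and below it for 5313. The split of the 10 genes was thus near that of all genes. Every S767 library was below every DMSO library for 4 genes (SLC2A1, HK2, PGK1 and LDHA), against 4.08% of all genes. Ratios under -0.2 in both the replicate 2 and the replicate 3 pair were found for 6 of the 10 genes and 7.18% of all genes. These counts were chosen after the values were seen and repeat what the genes were selected from.

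For most of the 10 genes the spread was larger in DMSO. The log2 values of 9 of the 10 were more spread over the DMSO libraries than over the S767 libraries, and 49.4% of all genes tested were. The DMSO values also entered the ratios that selected the 10 genes, so this count is not independent of the selection. Over the 10 genes the median SD was 0.10 in DMSO and 0.087 in S767, and over all genes 0.12 in both. For PFKFB4 the SD was 1.30 in DMSO and 0.34 in S767, for PDK1 0.43 and 0.11, and for LDHA 0.12 and 0.026. Beside the small distance of the replicate 1 pair on the third principal component, 2 genes named after their values were seen differed by about as much in that pair as in the others. ALAS1, the first enzyme of heme synthesis, was higher in S767 by 0.82, 1.00 and 0.71 on the log2 scale in the 3 pairs, and TFRC, the transferrin receptor, by 0.77, 0.72 and 0.70. With 1 library for each treatment and replicate number, whether the effect of S767 on the 10 genes differed between pairs cannot be tested.

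Over all 6 libraries, the fitted log2 fold changes were -2.04 ± 0.53 (SE) for PFKFB4, -1.22 ± 0.40 for ALDOC, -0.41 ± 0.16 for SLC2A3, -0.38 ± 0.18 for PDK1 and -0.26 ± 0.091 for ENO2. They were -0.17 ± 0.059 for LDHA, -0.16 ± 0.045 for HK2, -0.12 ± 0.052 for SLC2A1, -0.073 ± 0.041 for PFKFB3 and -0.056 ± 0.039 for PGK1, and the median of the 10 was -0.21. With the replicate number as a block and the replicate 1, 2 or 3 pair left out in turn, the fold change of PFKFB4 was -2.66, -1.12 and -1.50. For ALDOC it was -1.52, -0.85 and -0.87, for SLC2A3 -0.67, -0.32 and -0.20, and for PDK1 -0.53, -0.23 and -0.28. The fold changes of these 4 genes were thus larger without replicate 1 and smaller without replicate 2 or 3. With any single library left out and no block, PFKFB4 was between -2.48 and -1.40, ALDOC between -1.58 and -0.73 and SLC2A1 between -0.16 and -0.077.

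**Figure D3:**
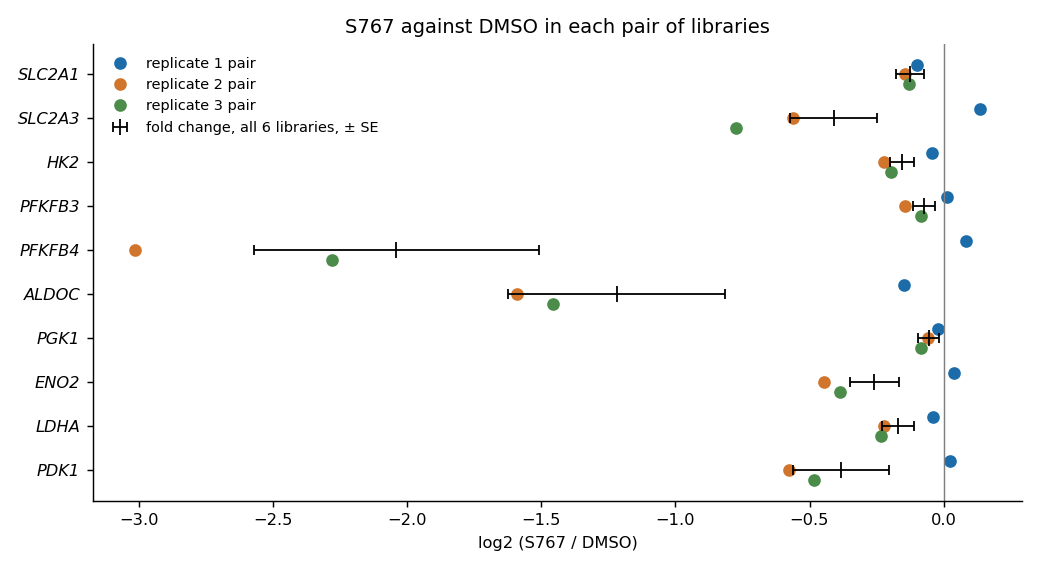
log2 ratio of S767 to DMSO for the 10 genes in each pair of libraries with the same replicate number (colored points), with the fold change fitted over all 6 libraries ± SE (black). The replicate 1 points lie between -0.15 and 0.14, and the points of replicates 2 and 3 are all below 0, down to -3.01 for PFKFB4.

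The average level of a replicate number over both treatments was not itself selected on. It includes the DMSO values that entered the ratios, so a test of it is not independent of the selection. In edgeR's quasi-likelihood test of replicate number, adjusted over all genes, 3 of the 10 genes differed, which is near the 28.7% of all genes that did. PDK1 was higher in replicates 2 and 3 than in replicate 1, by 0.51 and 0.39 on the log2 scale (adjusted p = 0.0045, edgeR), and ALDOC by 0.53 and 1.21 (adjusted p = 0.0044, edgeR). These differences were not even over the treatments. In S767 ALDOC was lower in replicate 2 (3.99 CPM) than in replicate 1 (4.63 CPM), whereas in DMSO it was higher (12.0 against 5.12 CPM). SLC2A1 was higher in replicate 2 by 0.12 and not in replicate 3, where the difference was -0.0043 (adjusted p = 0.0089, edgeR). The other 7 genes, with adjusted p from 0.078 (LDHA) to 0.80 (PFKFB3), did not pass the test.

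The enzymes among the 10 genes have isoenzymes for the same step, so the share of each in its family, summed in TPM, shows how much of the step's transcript it made up. HK2 held 51.6 ± 1.47% of hexokinase transcripts (HK1, HK2 and HK3) in DMSO and 49.5 ± 0.508% in S767 (SD, n = 3). LDHA held 39.5, 42.7 and 43.2% of lactate dehydrogenase transcripts in DMSO replicates 1 to 3 and 39.6, 38.6 and 39.0% in S767, the rest being almost all LDHB. The S767 share of LDHA differed from the DMSO share by -4.14 and -4.17 percentage points in replicates 2 and 3 and by 0.131 points in replicate 1. PDK1 held 25.7, 37.5 and 35.0% of pyruvate dehydrogenase kinase transcripts in DMSO and 26.5, 28.4 and 27.0% in S767. Among the PFKFB genes, PFKFB4 held 3.58, 17.9 and 10.5% in DMSO and 4.02, 2.97 and 2.45% in S767, and PFKFB3 held 94.0, 79.7 and 86.6% and 92.3, 93.6 and 94.5%. PFKFB3 was thus the main transcript of its family in every library. ALDOC, at 0.194 to 0.863% of aldolase transcripts, and ENO2, at 0.437 to 0.585% of enolase transcripts, were minor beside ALDOA and ENO1 in all 6 libraries, and PGK2 was at 0 TPM in each library, leaving PGK1 with 100% of its family. PFKFB4 and ALDOC, with the largest fold changes of the 10 genes, thus made up a small part of the transcripts for their step.

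Of 26 other glycolytic enzymes, 18 were tested. They had a median log2 fold change of -0.036 and a range of -0.68 to 0.24, and their pair medians were -0.0060, -0.035 and -0.077. Without a block, 3 of the 18 were lower at a P value under 0.05 and 0 higher, where 1.51 and 2.03% of all genes were, and none had an adjusted p under 0.05. The 3 were GPI (glucose-6-phosphate isomerase) at -0.11 ± 0.039, ALDOA (aldolase A) at -0.18 ± 0.079 and PFKFB1 at -0.68 ± 0.24, the last at 0.11 to 0.24 CPM only. The counts of ALDOA were 0.00472 of its RSEM estimate, so its value rests on a small part of its reads. With the block, GPI was lower (adjusted p = 0.028, edgeR) and PFKL, the liver-type phosphofructokinase, was higher at 0.096 ± 0.023 (adjusted p = 0.039, edgeR), where 1.08% of all genes were lower and 2.16% higher. The S767 library of GPI was lower in all 3 pairs, by 0.078, 0.097 and 0.17. With the block these calls of GPI and PFKL were lost without the replicate 2 or the replicate 3 pair. Without the replicate 1 pair 5 of the 18 were lower and 1 higher, against 4.34 and 5.52% of all genes. Without the replicate 2 pair none passed in edgeR, where 24 of all 21198 genes did. In that fit 3 had an unadjusted P value under 0.05, against 1895 of all genes. Without the replicate 3 pair 1 was higher, against 418 of all 20801 genes. Of the transporters outside the 10, 10 of 16 were tested, and 0 had a P value under 0.05 in edgeR, limma-voom or DESeq2. Their median log2 fold change was -0.018, and SLC16A1 and SLC16A3, the lactate transporters MCT1 and MCT4, were at -0.016 ± 0.039 and -0.11 ± 0.068. With the block 0 passed an adjusted p of 0.05 in edgeR, and without the replicate 1 pair 2 were lower and 1 higher, against 4.34 and 5.52% of all genes. Without the replicate 2 pair none passed, and without the replicate 3 pair 1 was lower, against 218 of all 20801 genes.

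**Figure D4:**
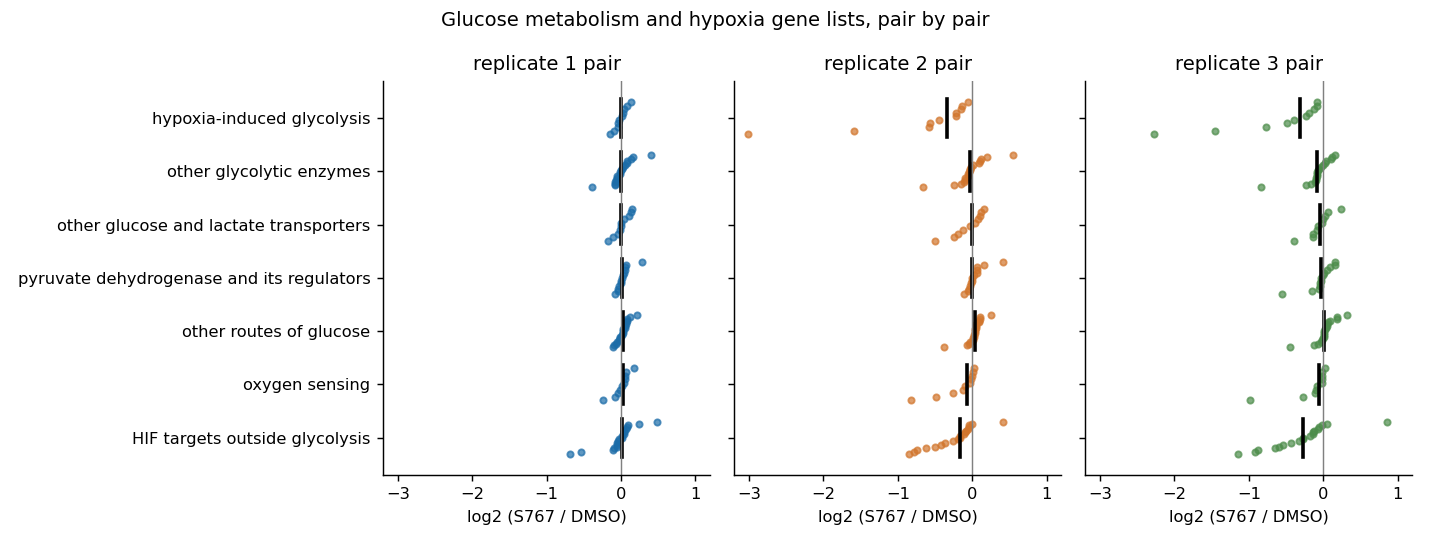
log2 ratio of S767 to DMSO in each replicate pair for the tested genes of 7 lists, 1 point a gene, with a black bar at the median of the list. The bars of the hypoxia-induced glycolysis genes (-0.33 and -0.31) and of HIF targets outside glycolysis (-0.16 and -0.27) lie below 0 in the replicate 2 and 3 pairs, and in the replicate 1 pair the bars of the lists lie between -0.0060 and 0.031.

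HIF targets outside glycolysis had medians below 0 in the same pairs. Of 21 listed, 19 were tested, CA9 and ANGPTL4 being left out at 0 to 5 fragments a library. Their median ratio was 0.013, -0.16 and -0.27 in the 3 pairs, with 9, 18 and 17 of the 19 below 0. Of all 20725 genes tested, 9927, 10285 and 10292 were below 0. This list was also written with results of these libraries known and is not independent evidence of a direction. Without a block 4 of the 19 were lower at a P value under 0.05 (1.51% of all genes), and with the block 5 had an adjusted p under 0.05 (1.08% of all genes). With the block and without the replicate 1 pair 14 were lower (4.34% of all genes) and 0 higher (5.52%). Without the replicate 2 pair none passed in edgeR, where 24 of all 21198 genes did. In that fit 8 were lower at an unadjusted P value under 0.05, against 860 of all genes. Without the replicate 3 pair 7 were lower by adjusted p, against 218 of all 20801 genes.

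BNIP3 and BNIP3L, a pair of receptors for the removal of mitochondria, were highest in DMSO replicates 2 and 3, as were the 10 genes. BNIP3 was at 34.0, 57.0 and 47.4 CPM in DMSO and at 33.1, 31.6 and 31.4 in S767, and BNIP3L at 20.1, 42.7 and 41.8 and at 18.7, 24.8 and 26.7. In both genes DMSO replicate 1 lay close to its S767 partner. With the block their log2 fold changes were -0.49 ± 0.099 (adjusted p = 0.020, edgeR) and -0.52 ± 0.087 (adjusted p = 0.0085, edgeR). ANKRD37, a small ankyrin repeat protein, differed from this pattern. It was lower in S767 in every pair, by 0.54, 0.62 and 0.92 on the log2 scale, at -0.70 ± 0.095 with the block (adjusted p = 0.0026, edgeR). KDM3A, a histone demethylase, was lower at -0.23 ± 0.044 (adjusted p = 0.016, edgeR) and the secreted hormone STC2 at -0.13 ± 0.026 (adjusted p = 0.018, edgeR). P4HA1, a collagen prolyl hydroxylase, was at -0.24 ± 0.10 without the block and missed an adjusted p of 0.05 in both fits. VEGFA, the vascular growth factor, was at -0.091 ± 0.093, and its pair ratios were -0.050, -0.082 and -0.14.

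Of 12 oxygen-sensing genes listed, 10 were tested, with a median log2 fold change of -0.041, and HIF1A (-0.030 ± 0.048), ARNT (0.022 ± 0.040) and VHL (-0.014 ± 0.036) did not pass the test with or without the block. Without the block 1 of the 10 had a P value under 0.05 (1.51% of all genes lower), which was EGLN3, a HIF hydroxylase that is itself a HIF target, at -0.71 ± 0.23 and 0.19 to 0.44 CPM. With the block 1 of the 10 had an adjusted p under 0.05 (1.08% of all genes lower). It was CITED2, which competes with HIF for its coactivator, at -0.28 ± 0.052 (adjusted p = 0.014, edgeR). CITED2 was at 285, 374 and 264 CPM in DMSO and at 269, 266 and 219 in S767, so that it fell most in replicate 2. With the block and without the replicate 1 pair, 4 of the 10 were lower (CITED2, EGLN3, MXI1 and EGLN1) and 0 higher, against 4.34 and 5.52% of all genes. Without the replicate 2 pair none passed in edgeR, where 24 of all 21198 genes did. In that fit 2 had an unadjusted P value under 0.05, against 1895 of all genes. Without the replicate 3 pair 1 was lower, against 218 of all 20801 genes.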

How the data were processed

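Poly(A) RNA was sequenced as stranded libraries from 3 DMSO and 3 S767 samples of OCI-AML5 cells. According to the submitters' processing notes, the authors used STAR 2.7.1a and RSEM 1.2.28 with GRCh38. The study's methods give a different version of RSEM. The authors deposited fragment counts per gene (unnormalized, for each strand and without regard to strand), RSEM expected counts and TPM values per gene, which are scaled to a common total. The reverse-strand counts were used, since forward-strand counts were 6.44 to 6.58% of both. Summary lines (20.3% of fragments) were left out. Symbols were found for 60340 of 60609 genes, and positions are those of GENCODE on GRCh38.

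CPM and log2 CPM (prior count 2) were computed with TMM factors. Genes kept by filterByExpr (minimum count 10) were tested in R 4.3.3 with edgeR 4.0.16 (quasi-likelihood test), and p-values were adjusted over all of them by the Benjamini-Hochberg method. SE was obtained from the fold change and the F statistic. The study used limma-voom, which is an alternative here, as were DESeq2 1.42.0, limma 3.58.1 on log2(TPM + 1) and log2(TPM + 0.1), RSEM expected counts rounded to whole numbers, other scalings and filters, and libraries left out. The edgeR fits without and with the block and the test of replicate number were run on simulated counts with known fold changes. The other fits were not. The replicate numbers were taken to pair the libraries: over 6191 genes with a mean log2 CPM above 5, deviations from the group means correlated at 0.78, 0.87 and 0.75 between libraries of the same number and were negative otherwise. The labels do not say what a number shares.

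The 10 genes and all gene lists were chosen with earlier results of these data known. The genes named are the 10, list genes with a P value under 0.05 without the block or an adjusted p under 0.05 with it, and the 10 genes most correlated with the mean z-score of the 10 over the libraries. Of these last 10, 1 is not reported here. Other genes named were chosen after their values were seen. Precision was limited by the spread between samples, not by depth.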

Additional observations from a re-analysis of the deposited data

How the results depend on the processing

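Under the 20 alternatives, all 10 genes had a fold change below 0, with a median between -0.32 and -0.16. Of 200 values for single genes, 195 moved by less than the SD over the pairs and 5, all SLC2A1, by more (-0.16 to -0.077). That limit was widest for the genes whose pairs differed most. It was 1.62 for PFKFB4, which ran from -2.66 to -1.02, and 0.023 for SLC2A1, so these counts do not rank the genes by stability. Over all genes, 89 were up- and 165 down-regulated and 1 had an adjusted p under 0.05. With the replicate block these were 142, 270 and 670, and with the block and without the replicate 1, 2 or 3 pair 189, 169 and 190 up, 482, 224 and 282 down, and 2034, 24 and 636 by adjusted p. DESeq2 gave 46, 85 and 25, no filter 202, 361 and 9, and log2(TPM + 1) 18, 18 and 0, a split of higher to lower calls unlike the main one; log2(TPM + 0.1) gave 0 by adjusted p. Leaving out 1 library gave 87 to 144 up, 116 to 285 down and 1 to 2 by adjusted p. Replicate numbers separated 5944 genes, and 2953 without treatment in the model. The median of other glycolytic enzymes was 0.015 with no filter, which adds enzymes with few counts. Transporters had -0.064 with log2(TPM + 0.1) and -0.065 with the block without the replicate 1 pair. The pyruvate dehydrogenase list had -0.027 and 0.018 with the block without the replicate 1 and 3 pairs, and -0.041 to 0.023 with 1 library left out. Other routes of glucose had 0.014 on both TPM scales, 0.017 with the block without the replicate 2 pair and 0.018 to 0.033 with 1 library left out. Of 8 list genes with a P value under 0.05, BNIP3 and ANKRD37 kept it whichever library was left out. Of the 9 past an adjusted p of 0.05 with the block, 9, 0 and 7 kept it without the replicate 1, 2 and 3 pair. The cause was not tested. Depth did not limit the 10 genes, but EGLN3 and PFKFB1 rest on few fragments.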

Other observations

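The pyruvate dehydrogenase list (subunits, kinases other than PDK1, phosphatases and the mitochondrial pyruvate carrier) had a median log2 fold change of -0.0043 over 13 genes tested, and in edgeR 0 of 13 passed an adjusted p of 0.05 with or without the block or a P value of 0.05 without it, as with limma-voom and DESeq2. With the block and without the replicate 1 pair 2 were higher and 1 lower, where 5.52 and 4.34% of all genes were. None passed without the replicate 2 or the replicate 3 pair. Its pair medians were 0.011, -0.0055 and -0.032. PDK2 and PDK3, which act on the same enzyme as PDK1, were at 0.10 ± 0.092 and -0.10 ± 0.055. Other routes of glucose (pentose phosphate, glycogen, gluconeogenesis and hexosamine genes) had a median of 0.032 over 19 genes tested, with 0 past a P value of 0.05 without the block in edgeR or limma-voom and 1 in DESeq2. With the block only PCK2, the mitochondrial phosphoenolpyruvate carboxykinase, passed, at 0.17 ± 0.033 (adjusted p = 0.018, edgeR). GBE1, the glycogen branching enzyme, had pair ratios of 0.12, -0.38 and -0.45 and did not pass with the block (adjusted p = 0.12, edgeR). With the block and without the replicate 1 pair it was at -0.42 and passed. That fit leaves out the only pair in which GBE1 was higher and rests on few libraries. Its SE of 0.027, against 0.075 with all pairs, therefore understates how far the pairs differed. In that fit 4 of the 19 were higher and 1 lower, where 5.52 and 4.34% of all genes were. Without the replicate 2 pair none passed. Without the replicate 3 pair 1 was higher and 1 lower, against 418 and 218 of all 20801 genes.

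The mean z-score of the 10 genes was -0.30, 1.10 and 1.17 in DMSO replicates 1 to 3 and -0.46, -0.86 and -0.64 in S767. Of 12773 other genes with a mean log2 CPM above 0, 78 (0.611%) had a Pearson correlation above 0.9 with it over the 6 libraries, which share the treatment and the replicate numbers. Among the 10 most alike were CCL3 (0.99), WASHC4 (0.99), RGS2 (0.98), ITPRIP (0.98), OXSR1 (0.97), ZC3H12B (0.97), PRDM8-AS1 (0.97), DGKH (0.96) and KPNB1 (0.96). CCL3, a chemokine of myeloid cells, was at 0.742, 2.37 and 3.12 CPM in DMSO and at 0.752, 0.603 and 0.574 in S767, so its DMSO replicate 1 also lay beside S767. WASHC4, an endosomal protein, was at 116 to 120 CPM in DMSO and at 115 in each S767 library, a much smaller difference. BNIP3 ranked 12 with a correlation of 0.96, and HIF1A ranked 2084 with 0.42.

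MPO and CD34, further markers of myeloid identity, also differed between replicate numbers. MPO was at 61.8 and 56.8 CPM in the replicate 1 libraries and at 30.1 to 40.7 in the others, and CD34 was at 1.57 and 1.51 CPM against 2.52 to 6.26. Of the 9 myeloid markers tested, 8 differed between replicate numbers at an adjusted p under 0.05 in edgeR, where 28.7% of all genes did.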
